A study of Mus musculus with 4 samples.

Results

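Saa3, Lcn2, Lrg1, Serpina3n, Serpina3m and Serpina3g are 6 acute-phase and protease-inhibitor genes, followed here across the stromal cell types of mouse bone marrow in 2 mouse models of myelodysplastic syndrome (MDS), a clonal disorder of blood formation. They are 6 of the 27998 genes in the count tables. They were chosen because earlier looks at the same libraries had shown higher levels of acute-phase genes in marrow stromal cells of the models, so every ratio between a model and its control is given as a description, with no test. The models were read in 4 single-cell libraries, each from C57BL/6 mice and 1 per group. NHD13Tg came from mice with the Nup98-HoxD13 transgene and was set against the wild-type library WT_A1. Abcg2-MDS/AML came from mice named for Abcg2 and for MDS or acute myeloid leukaemia and was set against the wild-type library Control. As background, the Nup98-HoxD13 transgene is known to be driven by Vav regulatory elements, which act in blood cells rather than in stroma. How the Abcg2-MDS/AML mice were made, and the age, sex and number of animals per library, were not stated in the labels used. All 4 libraries held collagenase-released cells of crushed femora and tibiae, sorted for CD140a and CD51 and against the blood, erythroid and endothelial markers CD45, TER119 and CD31.

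The acute-phase response is the change in secreted proteins that follows injury, infection or inflammation. Interleukin-6 acts on it through STAT3, interleukin-1 through NF-kB, and C/EBP factors and glucocorticoids act on many of the same genes. The liver makes most of these proteins, and stromal and fat cells make some of them. Saa3 encodes a serum amyloid A protein that in mice is made largely outside the liver. Lcn2 encodes lipocalin 2, which binds bacterial siderophores and is stored in the granules of neutrophils. Lrg1 encodes a secreted leucine-rich glycoprotein that can modify TGF-beta signalling through endoglin. Serpina3n encodes a secreted inhibitor of serine proteases related to human alpha-1-antichymotrypsin, and Serpina3m belongs to the same cluster of paralogues. Serpina3g encodes an inhibitor of that cluster without a secretion signal, known in mouse lymphocytes for acting on lysosomal cathepsins.

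The 250 bases before the start of each gene are shown because the genes are discussed as a group with shared upstream signals. They come from RefSeq on GRCm38.p6, which held 5 of the 6 genes and none for Serpina3m. The windows are chr7:46715677-46715926 (minus strand) for Saa3, chr2:32387740-32387989 (minus strand) for Lcn2, chr17:56121947-56122196 (minus strand) for Lrg1, chr12:104406458-104406707 (plus strand) for Serpina3n and chr12:104235897-104236146 (plus strand) for Serpina3g. Each is written 5′ to 3′ on the strand of its gene, and capitals mark the matches to the motifs searched.
Saa3: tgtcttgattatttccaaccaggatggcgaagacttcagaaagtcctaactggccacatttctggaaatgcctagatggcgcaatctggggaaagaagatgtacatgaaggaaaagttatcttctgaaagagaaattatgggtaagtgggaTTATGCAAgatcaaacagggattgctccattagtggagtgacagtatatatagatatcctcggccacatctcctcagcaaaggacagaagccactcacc
Lcn2: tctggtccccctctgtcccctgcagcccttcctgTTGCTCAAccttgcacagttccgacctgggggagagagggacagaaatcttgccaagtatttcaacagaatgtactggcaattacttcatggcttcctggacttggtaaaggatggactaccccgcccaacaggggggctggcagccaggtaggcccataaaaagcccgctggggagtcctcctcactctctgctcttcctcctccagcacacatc
Lrg1: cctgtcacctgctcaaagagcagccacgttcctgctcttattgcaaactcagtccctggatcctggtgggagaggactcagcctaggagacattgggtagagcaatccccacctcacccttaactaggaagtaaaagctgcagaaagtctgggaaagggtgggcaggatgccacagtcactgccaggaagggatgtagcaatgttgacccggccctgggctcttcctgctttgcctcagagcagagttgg
Serpina3n: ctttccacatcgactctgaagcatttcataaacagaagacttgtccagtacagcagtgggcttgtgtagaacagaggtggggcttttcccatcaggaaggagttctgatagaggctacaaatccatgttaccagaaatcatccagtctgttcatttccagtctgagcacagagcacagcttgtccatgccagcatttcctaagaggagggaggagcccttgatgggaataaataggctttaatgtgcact
Serpina3g: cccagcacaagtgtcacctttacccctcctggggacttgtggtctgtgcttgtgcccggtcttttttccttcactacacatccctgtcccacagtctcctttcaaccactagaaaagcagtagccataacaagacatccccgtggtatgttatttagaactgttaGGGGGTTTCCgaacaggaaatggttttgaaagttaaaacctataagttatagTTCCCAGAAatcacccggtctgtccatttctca
The motifs, searched on both strands, were TTCNNNGAA for STAT factors, TTGCNNAA for C/EBP factors, the NF-kB consensus and the glucocorticoid receptor element. Saa3 had 1 C/EBP match 99 to 92 bases before its start, and Lcn2 had 1 C/EBP match 216 to 209 bases before its start. Serpina3g had 1 NF-kB match 85 to 76 bases before its start and 1 STAT match 33 to 25 bases before its start, and these matches do not overlap. Lrg1 and Serpina3n had none of these letters in their windows, and no member had the glucocorticoid receptor motif. Of all 32817 windows of this length, 7.01% held the STAT motif, 9.57% the C/EBP motif, 7.25% the NF-kB motif and 0.00914% the glucocorticoid receptor motif. No motif was thus shared by all 5 windows.

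The libraries held 38763489 UMIs (unique molecular identifiers, 1 per captured transcript) in NHD13Tg, 37368880 in WT_A1, 36133716 in Abcg2-MDS/AML and 46033790 in Control. Barcodes with at least 2000 UMIs, at least 500 genes and a share of mitochondrial transcripts of at most 10% were taken as cells. They numbered 5766, 4973, 5586 and 5158 in the same order, and any 2 libraries shared between 6 and 14 of their cell barcodes. Cells were put in classes by summed marker UMIs per 10000. The classes were MSC (Adipoq, Lepr and Esm1, at least 10), osteoblast (Bglap and Bglap2, at least 100), chondrocyte (Col9a1, Col9a2 and Col9a3, at least 15), fibroblast (Dpt, Clec3b and Col14a1, at least 8) and tendon (Thbs4 and Myoc, at least 30). A cell could meet several thresholds, and 26.1%, 32.6%, 52.8% and 54.6% of cells met none in NHD13Tg, WT_A1, Abcg2-MDS/AML and Control. The chondrocyte class held 6 and 4 cells in the NHD13 pair and the osteoblast class held 8 cells in Abcg2-MDS/AML, too few for a ratio. Levels below are CPM, the UMIs of a gene per 1000000 UMIs of the cells of a class in a library. With 1 library in each group there is no replicate of any difference between a model and its control, and all intervals are 95% intervals that cover counting error only. The chemistry reads 3' ends without regard to gene length, so levels are compared between libraries and not between genes.

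The MSC class, the marrow reticular stroma that carries adiponectin and the leptin receptor, held 1902 cells in NHD13Tg, 694 in WT_A1, 189 in Abcg2-MDS/AML and 431 in Control. Its 9 markers summed to 36792, 31917, 8765 and 32217 CPM in the same order. In Abcg2-MDS/AML the class therefore stood apart: Adipoq was found in 30.7% of its cells, Esm1 in 28.6% and Lepr in 97.9%, and Cxcl12, the chemokine that marks this stroma, stood at 1627 CPM against 16621 CPM in Control. Of the cells near the threshold of this library, 51 lay just inside and 71 just outside. Serpina3n stood at 273 CPM in the cells just inside and 449 CPM in those just outside, and Serpina3g at 268 and 331 CPM. In NHD13Tg the 80 cells just inside and 79 just outside had 217 and 1.98 CPM of Saa3 and 118 and 57.5 CPM of Lrg1. The MSC values of the Abcg2 pair thus compare cells of unequal marker content. The summed markers of the chondrocyte class also differed, at 19522 CPM in Abcg2-MDS/AML and 41755 CPM in Control, while those of the fibroblast class stood at 3679 and 4420 CPM and those of the tendon class at 10305 and 9165 CPM.

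**Figure D1:**
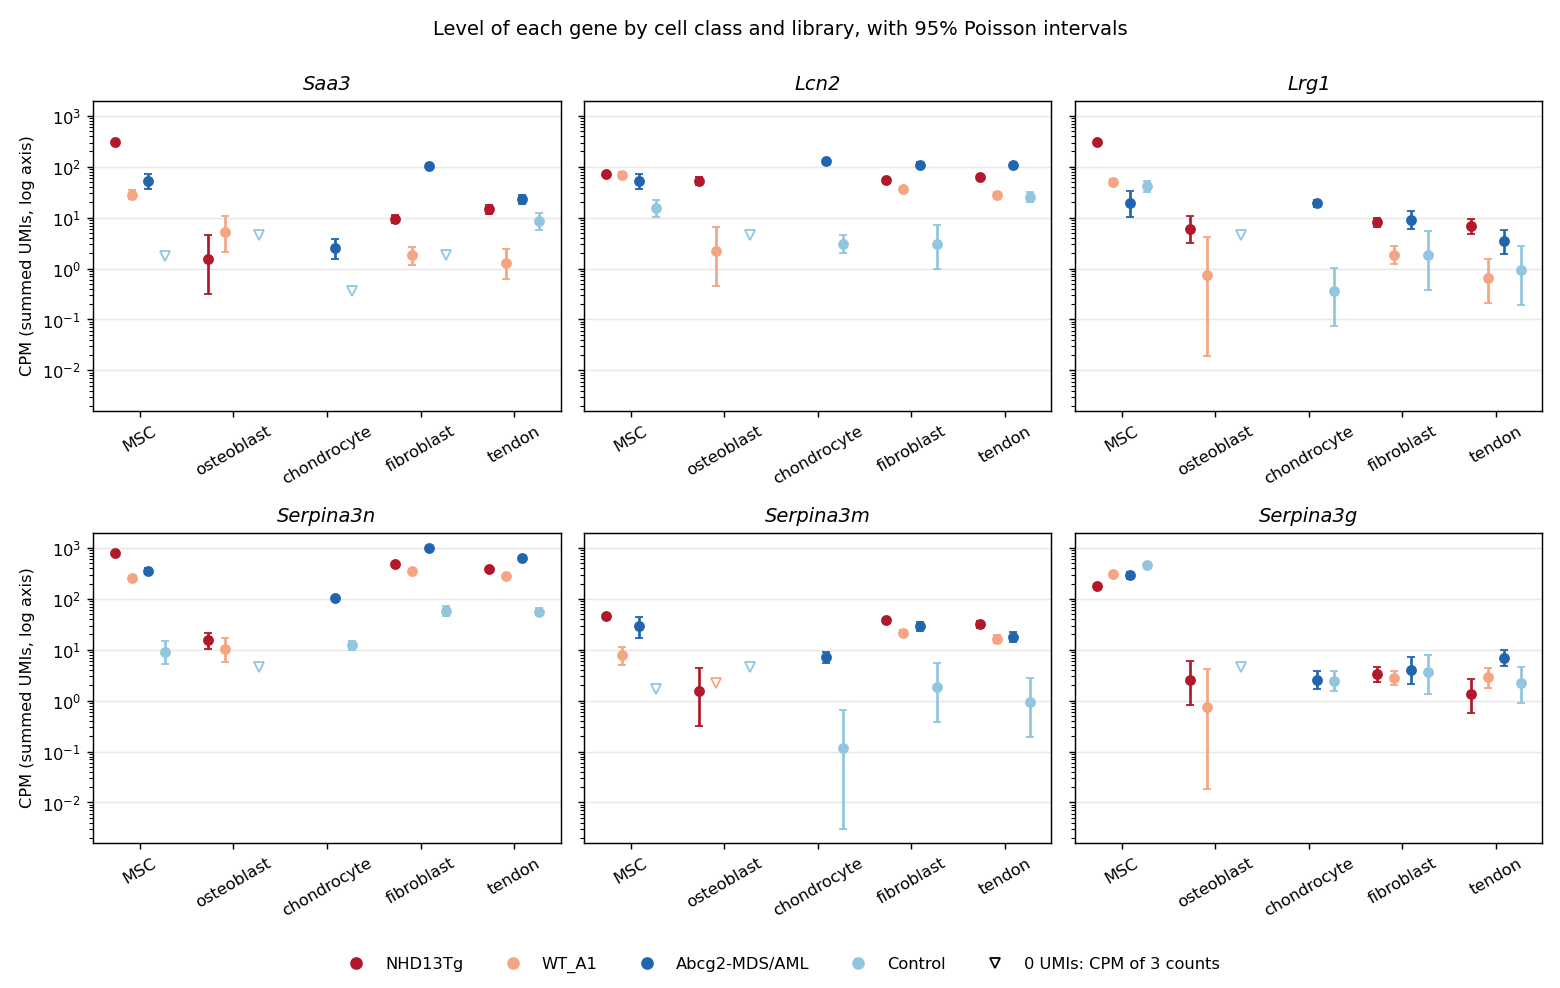
Level of the 6 genes (CPM, log axis) in the 5 cell classes of the 4 libraries. Points are summed UMIs with 95% Poisson intervals, open triangles mark classes with 0 UMIs at the CPM that 3 counts would give, and sums of under 10 cells are left out. Serpina3g is near or above 181 CPM in MSC cells of every library and under 10 CPM in the other classes drawn, whereas Serpina3n is above 10 CPM in every drawn sum of the other classes except osteoblast cells of Control.

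Saa3 was higher in MSC cells of both models. It stood at 303 CPM (292 to 314) in NHD13Tg and 28.3 CPM in WT_A1, a ratio of 10.7 (8.72 to 13.3). It stood at 53.0 CPM in Abcg2-MDS/AML, from 35 UMIs in 6 cells, while Control had 0 UMIs in 431 cells, which allows a share of up to 0.696% of cells with a UMI, not of cells expressing the gene, and makes the level at least 30.5-fold higher. Few cells carried most of this transcript. In WT_A1 the top MSC cell held 46.8% of the Saa3 UMIs of the class and in Abcg2-MDS/AML it held 45.7%, against 5.52% in NHD13Tg. Without the top cell of each library the ratios were 19.0 and at least 16.6. In the fibroblast and tendon classes of the NHD13 pair Saa3 was low. It stood at 9.42 CPM in NHD13Tg fibroblast cells against 1.82 CPM in WT_A1 (5.18-fold, or 2.70-fold without the top cell of each library). In NHD13Tg tendon cells it stood at 14.6 CPM against 1.30 CPM in WT_A1 (11.2-fold, or 9.78-fold without the top cells). The top NHD13Tg cell held 65 Saa3 UMIs among 22150 UMIs in each of these classes, as 1 cell that met both thresholds would. Without the top cell the levels were 3.53 CPM in fibroblast and 3.82 CPM in tendon cells. Cells of no class had 27.1 CPM of Saa3 in NHD13Tg and 1.65 CPM in WT_A1, from 282 and 21 UMIs. In NHD13Tg 88.4% of the Saa3 UMIs in cells lay in the MSC class. Of the 5 classes in Abcg2-MDS/AML it stood highest in the fibroblast class, at 102 CPM against 0 UMIs in Control, but 1 cell held 75.1% of those 301 UMIs. The bound there was at least 55.3-fold with that cell and at least 13.8-fold without it. Cells of no class had 92.9 CPM in Abcg2-MDS/AML, from 1323 UMIs, against 0 UMIs in Control. All 27 UMIs of Saa3 in Control lay in 1 tendon-class cell, so that the ratio in tendon cells was 2.72 with it and at least 20.2 with the top cell of each library left out. Saa3 was also present in free RNA, read from barcodes of at most 100 UMIs, at 76.4 CPM in NHD13Tg, 3.82 CPM in WT_A1, 82.4 CPM in Abcg2-MDS/AML and 0.271 CPM in Control. The level in MSC cells of Abcg2-MDS/AML lay under that of the free RNA of its library, and the part of free RNA in it was not tested.

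Lcn2 gave a ratio in MSC cells that rested on single cells. It stood at 71.9 CPM in NHD13Tg and 69.5 CPM in WT_A1, a ratio of 1.03 (0.889 to 1.21), although 17.9% of NHD13Tg cells and 2.16% of WT_A1 cells had a UMI. Of the WT_A1 cells 1 held 206 of the 231 UMIs, and it also held 5818 UMIs of the neutrophil granule and calprotectin genes Camp, Ngp, Ltf, S100a8 and S100a9 among its 15587 UMIs. Without the top cell of each library Lcn2 stood at 60.8 CPM in NHD13Tg and 7.52 CPM in WT_A1, a ratio of 8.08 (5.42 to 12.6). Without every cell that held a UMI of these 5 granulocyte genes, an alternative chosen after the values had been seen, the levels were 59.3 and 4.52 CPM and the ratio was 13.1 (7.74 to 24.2). All 7 granulocyte markers, these 5 with Elane and Mpo, summed to 516 CPM in MSC cells of NHD13Tg, 2009 CPM in WT_A1, 0 in Abcg2-MDS/AML and 615 CPM in Control. In MSC cells of Abcg2-MDS/AML Lcn2 stood at 53.0 CPM against 15.6 CPM in Control, a ratio of 3.39 (1.99 to 5.82), with 24 of the 27 Control UMIs in 1 cell that held 363 granulocyte marker UMIs. With the cells holding granulocyte genes left out Control had 0 UMIs and the ratio was at least 26.7. The direction was not the same with the class thresholds doubled, where the log2 ratio was -0.23.

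Over whole libraries, the granulocyte class of 20 cells in NHD13Tg, 10 in WT_A1, 1 in Abcg2-MDS/AML and 21 in Control held 46.5%, 57.8%, 1.10% and 82.0% of the Lcn2 UMIs found in cells. In Abcg2-MDS/AML 785 cells outside that class, with no UMI of its 5 defining markers, carried 97.7% of it. In that model Lcn2 was higher in every class that could be compared. It stood at 129 CPM in chondrocyte cells against 3.08 CPM in Control (41.9-fold, 28.5 to 64.4), at 111 CPM in fibroblast cells against 3.07 CPM (36.1-fold), and at 109 CPM in tendon cells against 25.2 CPM (4.33-fold). In the NHD13 pair it stood at 62.7 CPM in tendon cells against 28.5 CPM in WT_A1 (2.20-fold) and at 55.9 CPM in fibroblast cells against 35.9 CPM (1.56-fold). The osteoblast ratio of that pair, 53.1 CPM against 2.23 CPM, came from 1 NHD13Tg cell with 100 of 104 UMIs. The granulocyte markers summed to 1110 CPM in those NHD13Tg osteoblast cells against 3.71 CPM in WT_A1, and that 1 cell held 2117 UMIs of the 5 defining markers. Without every cell that held a UMI of these 5, Lcn2 had 3 UMIs in osteoblast cells of each library, too few for a ratio. Free RNA held Lcn2 at 84.9, 39.8, 223 and 38.0 CPM in NHD13Tg, WT_A1, Abcg2-MDS/AML and Control. In Control 1.26% of 478 erythroid cells, which should lack the gene, had a UMI of Lcn2 at a median of 24202.5 UMIs per cell, and 0.464% of Control MSC cells had one at a median of 3583.

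Lrg1 moved in opposite ways in MSC cells of the 2 pairs. It stood at 308 CPM (297 to 319) in NHD13Tg and 50.5 CPM in WT_A1, a ratio of 6.10 (5.22 to 7.16), with a UMI in 47.2% of NHD13Tg cells and 14.1% of WT_A1 cells. No single cell weighed on this: the top NHD13Tg cell held 0.726% of the UMIs. It stood at 19.7 CPM in Abcg2-MDS/AML and 41.1 CPM in Control, from 13 and 71 UMIs, a ratio of 0.479 (0.243 to 0.872). Without the cells that held granulocyte genes that interval reached 1, at 0.550 (0.276 to 1.02). In chondrocyte, fibroblast and tendon cells of Abcg2-MDS/AML Lrg1 was higher than in Control, at 19.2 CPM in chondrocyte cells against 0.356 CPM in Control, where it had 178 and 3 UMIs. A UMI was found in 10.2% of those Abcg2-MDS/AML cells and 0.191% of the Control cells, and in 2.76% and 0 after thinning each cell to 2000 UMIs. Fibroblast and tendon cells of all 4 libraries stayed under 10 CPM. Lrg1 transcripts of NHD13Tg lay almost wholly in the MSC class, which held 92.6% of them.

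Serpina3n was the most widespread member. In MSC cells it stood at 812 CPM (794 to 831) in NHD13Tg and 254 CPM (237 to 272) in WT_A1, a ratio of 3.20 (2.98 to 3.44). In those of Abcg2-MDS/AML it stood at 357 CPM (313 to 406) against 9.26 CPM in Control, a ratio of 38.6 (23.3 to 68.6). Taken as a ratio, the 2 wild-type libraries differed here by more than either model differed from WT_A1, at 254 and 9.26 CPM. The size of the second ratio thus rests on the low level in Control. Fibroblast cells had 494 CPM in NHD13Tg against 353 CPM in WT_A1 (1.40-fold), and 1011 CPM in Abcg2-MDS/AML against 58.4 CPM in Control (17.3-fold, 14.1 to 21.5). Tendon cells had 383 CPM in NHD13Tg against 277 CPM in WT_A1 (1.38-fold), and 651 CPM in Abcg2-MDS/AML against 56.2 CPM in Control (11.6-fold). Chondrocyte cells had 106 CPM in Abcg2-MDS/AML against 12.2 CPM in Control (8.66-fold). Free RNA followed the same order, at 379, 172, 259 and 14.4 CPM in NHD13Tg, WT_A1, Abcg2-MDS/AML and Control. The share of MSC cells with a UMI was 84.9% in NHD13Tg, 55.5% in WT_A1, 42.9% in Abcg2-MDS/AML and 3.71% in Control, against 1.05% of the erythroid cells of Control.

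Serpina3m followed Serpina3n at lower counts. It stood at 45.2 CPM in NHD13Tg MSC cells and 7.82 CPM in WT_A1 (5.79-fold, 3.89 to 8.96), and at 28.8 CPM in Abcg2-MDS/AML against 0 UMIs in Control (at least 16.6-fold). Fibroblast cells had 39.1 CPM in NHD13Tg and 21.9 CPM in WT_A1 (1.78-fold), and 28.8 CPM in Abcg2-MDS/AML against 1.84 CPM in Control (15.6-fold, from 85 and 3 UMIs, or 44.1-fold without the top cell of each library). In chondrocyte cells 66 UMIs stood against 1, a ratio of 60.2 (10.4 to 2413). The longest reading frames of Serpina3n and Serpina3m were 85.2% identical, but none of the 451 stretches of 50 bases in the last 500 bases of either annotated transcript occurred in a transcript of another gene. Mixing of their counts could still come from shorter or imperfect matches, since how reads shared between paralogues were counted was not stated. For Serpina3g 2.44% of such stretches were shared, with Serpina3f, and for Saa3 2.00%, with Saa1.

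Serpina3g went against the description of these genes as raised in both models. In MSC cells it stood at 181 CPM (173 to 190) in NHD13Tg and 304 CPM in WT_A1, a ratio of 0.596 (0.551 to 0.644), and at 291 CPM in Abcg2-MDS/AML and 462 CPM in Control, a ratio of 0.628 (0.534 to 0.737). Neither ratio reached 2-fold. The share of MSC cells with a UMI was 41.4% in NHD13Tg, 55.3% in WT_A1, 42.3% in Abcg2-MDS/AML and 65.4% in Control. Outside the MSC class it was at or under 7.01 CPM in every sum of at least 10 cells of the other 4 classes. Cells of no class had 8.92 CPM in NHD13Tg and 4.24 CPM in WT_A1, and 50.1 CPM in Abcg2-MDS/AML and 0.867 CPM in Control. In that library 241 cells outside the blood classes held a UMI of Mmp9, a gelatinase, and in them Serpina3g stood at 436 CPM, against 15.5 CPM in the 5343 cells without one. The same cells had 202 CPM of Saa3 against 51.7 CPM, and 12.7 CPM of Lcn2 against 206 CPM. Only 26 of them met the MSC threshold.

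**Figure D2:**
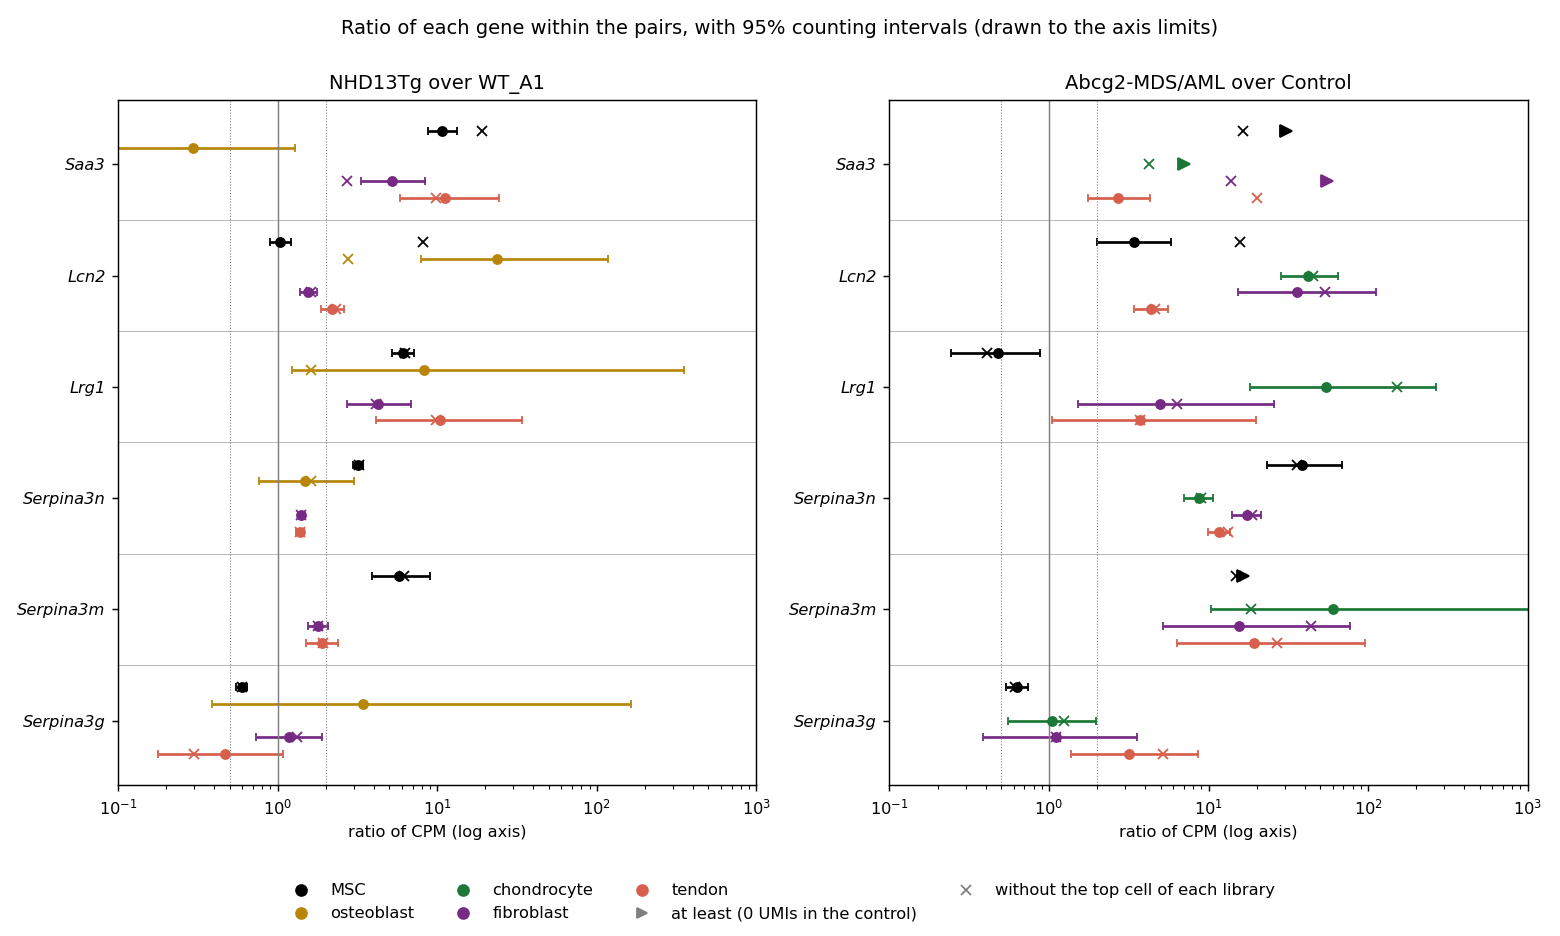
Ratio of CPM in the model over its control (log axis) for the 6 genes in the 5 classes, with NHD13Tg over WT_A1 on the left and Abcg2-MDS/AML over Control on the right. Bars are 95% counting intervals, arrows are lower bounds against 0 UMIs, crosses are the ratios without the top cell of each library (bounds again where the control then has 0 UMIs), and dotted lines mark 2-fold. Lcn2 in MSC cells of the NHD13 pair shows the widest gap between point and cross in MSC cells, at 1.03 and 8.08.

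Counted by a rule of size, at least 2-fold apart with a counting interval that leaves out 1, 4 of the 6 members were higher in NHD13Tg MSC cells (Saa3, Lrg1, Serpina3n and Serpina3m) and 0 lower. The same rule took 1.09% of 6169 genes with at least 20 CPM as higher and 1.93% as lower. In Abcg2-MDS/AML MSC cells 4 were higher (Saa3, Lcn2, Serpina3n and Serpina3m) and 1 lower (Lrg1), beside 7.49% higher and 13.0% lower of 6488 genes. All 6 members passed 20 CPM in MSC cells of both pairs. Saa3, Serpina3n and Serpina3m were higher in both, 3 of 6, where 0.240% of 5831 genes were. The members were chosen on these contrasts, so nothing is read from the shares. In fibroblast cells 2 were higher in NHD13Tg (Saa3 and Lrg1, beside 0.375% of genes) and 5 in Abcg2-MDS/AML (all but Serpina3g, beside 6.52%). Saa3 and Lrg1 were thus higher in both pairs, 2 of 6, beside 0.130% of genes with at least 20 CPM in both pairs. But both lay under 20 CPM in the NHD13 pair, where 3 of the 6 members reached that level and 0 of those were higher. In the Abcg2 pair 4 reached it. In tendon cells 3 were higher in NHD13Tg (Saa3, Lcn2 and Lrg1, beside 0.410%) and 6 in Abcg2-MDS/AML (beside 7.38%), with 3 of 6 passing 20 CPM in each pair. Of the 3 higher in NHD13Tg only Lcn2 passed that level, with Serpina3n and Serpina3m the others that did. Saa3, Lcn2 and Lrg1 were higher in both pairs, beside 0.176% of genes with at least 20 CPM in both pairs. In cells that met only the tendon threshold the NHD13Tg count was 1, Lcn2. There Saa3 had 2 UMIs in NHD13Tg and 0 in WT_A1, where the whole class had 88 and 10. Lrg1 had 4 UMIs in NHD13Tg and 1 in WT_A1, where the whole class had 41 and 5. In cells that met only the fibroblast threshold the NHD13Tg count was also 1, Lrg1. In tendon cells the interval of Lrg1 in the Abcg2 pair reached 1 without the top cell of each library. Chondrocyte cells of Abcg2-MDS/AML had 5 higher, beside 3.60%, and 2 passed 20 CPM. Osteoblast cells of NHD13Tg had 2 higher, Lcn2 and Lrg1, beside 1.56%. Only Lcn2 of the 6 passed 20 CPM there, Lrg1 had 12 UMIs against 1 in WT_A1, and 0 were left without the top cell of each library. The median gene itself lay lower by 0.36 and 0.23 on the log2 scale in chondrocyte and fibroblast cells of Abcg2-MDS/AML, and by under 0.1 in the other class comparisons, so ratios relative to it are larger in those 2 classes.

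**Figure D3:**
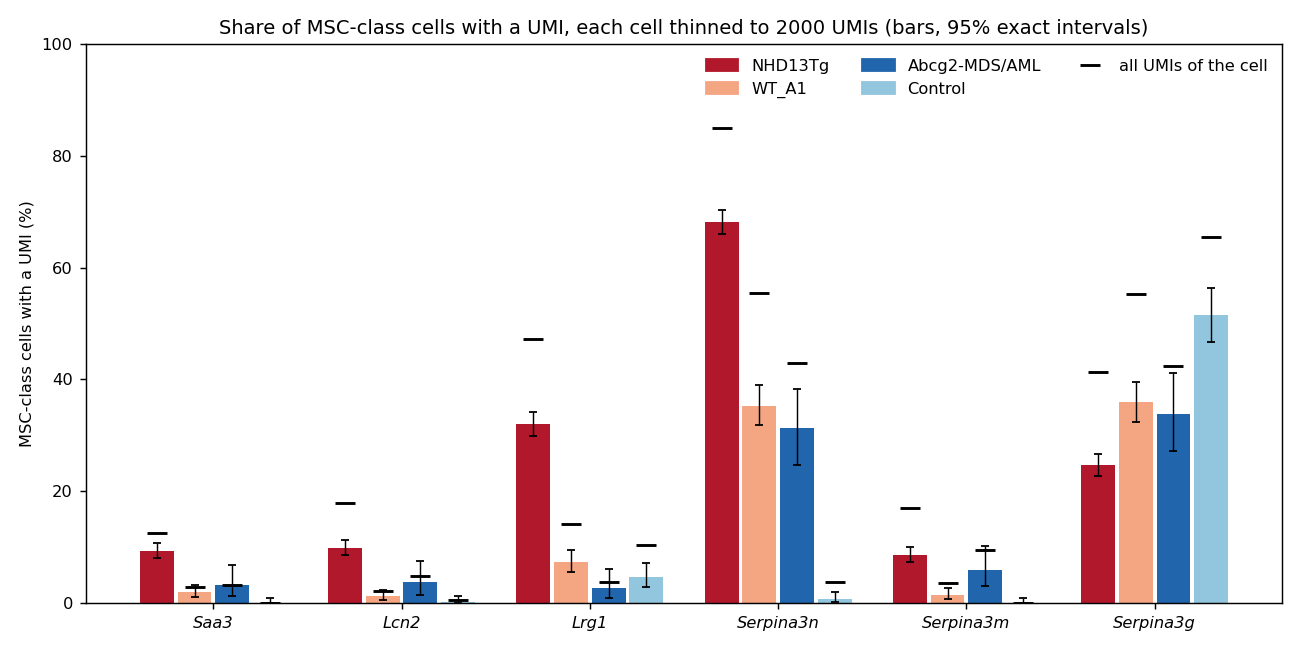
Share of MSC-class cells with at least 1 UMI of each gene (%) in the 4 libraries. Bars are shares after thinning each cell to 2000 UMIs, with 95% exact binomial intervals, and dashes are shares over all UMIs of the cell. For Serpina3n the bars stand at 68.2% in NHD13Tg, 35.3% in WT_A1, 31.2% in Abcg2-MDS/AML and 0.696% in Control, and for Serpina3g the order is reversed within each pair.

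The shares of MSC cells kept the same order within each pair for all 6 members when each cell was thinned to 2000 UMIs, which removes the difference in depth. For Lcn2 the thinned share of MSC cells was 9.88% (8.58 to 11.3) in NHD13Tg and 1.15% in WT_A1, and 3.70% in Abcg2-MDS/AML and 0.232% in Control. For Lrg1 it was 32.0% in NHD13Tg and 7.35% in WT_A1, and 2.65% in Abcg2-MDS/AML and 4.64% in Control, the last 2 within overlapping intervals. For Saa3 it was 9.25% in NHD13Tg and 1.87% in WT_A1. Saa3 and Lcn2 met in 28 of the 1902 NHD13Tg MSC cells at that depth, where the product of their shares gives 17.4. Saa3 and Lrg1 met in 57, where the product gives 56.4. In Abcg2-MDS/AML Saa3 and Serpina3g met in 25 of 5584 cells outside the blood classes, where the product gives 3.97, and Lcn2 and Serpina3g met in 7, 0.280 of the product. These cells pool all classes, so differences between classes also enter those 2 counts. Within the 189 MSC cells of that library Saa3 and Serpina3g met in 4, where the product gives 2.03. Lcn2 and Serpina3g met there in 1, where it gives 2.37.

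The level in MSC cells was then set against that in the other classes over all 4 libraries. The members were chosen from model values that also enter this fit, so the fit over all 4 libraries is not independent of that choice. Counts of cells of exactly 1 class were summed per class and library and fitted with edgeR's quasi-likelihood test, with the library as a block, over 17 sums of at least 10 cells. Serpina3g was higher in MSC cells than the mean of the other 4 classes by 7.02 on the log2 scale (SE 0.354, adjusted p = 2.46e-08), and Lrg1 by 4.80 (SE 0.663, adjusted p = 0.000146). In each library Serpina3g was higher in MSC cells than in any other class. Lrg1 was so in 3 libraries, while in Abcg2-MDS/AML it stood at 18.4 CPM in MSC cells and 19.3 CPM in chondrocyte cells. Saa3 was higher by 4.66 (SE 1.35, adjusted p = 0.0165), Serpina3n by 1.40 (SE 0.446, adjusted p = 0.0231) and Serpina3m by 1.25 (SE 0.321, adjusted p = 0.00476), while Lcn2 differed by 0.34 (SE 0.754, adjusted p = 0.765). So 5 of 6 members were called higher in MSC cells and 0 lower, where 25.8% of 11726 genes were called higher and 21.4% lower. Cells with granulocyte genes were kept in these sums. In WT_A1 1 such MSC cell held 206 of the 226 Lcn2 UMIs, and in NHD13Tg 1 such osteoblast cell held 100 of 103. The part of such cells in the Lcn2 difference was not tested. Without NHD13Tg the calls fell to 2, Serpina3g and Lrg1, and without WT_A1 to 3, with Serpina3m. Without Abcg2-MDS/AML 4 were called. In a fit of the wild-type libraries WT_A1 and Control alone, added after the values had been seen, 2 members were called, Lrg1 (7.27, edgeR adjusted p = 3.18e-08) and Serpina3g (8.17, edgeR adjusted p = 2.51e-06). In that fit Saa3, Lcn2, Serpina3n and Serpina3m had edgeR adjusted p between 0.283 and 0.374.

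Class by class, the serpins parted. Serpina3g was higher in MSC cells than in osteoblast, chondrocyte, fibroblast and tendon cells, by 7.11, 7.19, 7.18 and 6.58 on the log2 scale, with edgeR adjusted p between 1.01e-06 and 1.28e-05. Lrg1 was likewise fitted higher than in all 4 classes, by 5.21, 2.97, 4.69 and 6.33. Chondrocyte sums came from Abcg2-MDS/AML and Control only, so differences from that class do not compare cells within the NHD13 pair. In Abcg2-MDS/AML Lrg1 stood at 18.4 CPM in MSC cells and 19.3 CPM in chondrocyte cells. Serpina3n and Serpina3m passed the test only against osteoblast cells, by 5.13 (edgeR adjusted p = 0.000623) and 4.35 (edgeR adjusted p = 0.000113). Against fibroblast cells Serpina3n differed by -0.73 (SE 0.516, edgeR adjusted p = 0.285). Thus 4 members were called higher than in osteoblast cells (beside 24.3% of genes), 3 than in chondrocyte cells (beside 21.2%), 2 than in fibroblast cells (beside 21.4%) and 2 than in tendon cells (beside 20.5%). Saa3 passed against chondrocyte cells alone, by 7.01 (SE 2.56, edgeR adjusted p = 0.0486). In Abcg2-MDS/AML it stood at 64.5 CPM in MSC cells and 2.50 CPM in chondrocyte cells, and in Control it had 0 UMIs in both. The only library with a difference between these classes was thus a model library, with 35 Saa3 UMIs in MSC cells. The members were chosen from such model values, so nothing is read from this pass.

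**Figure D4:**
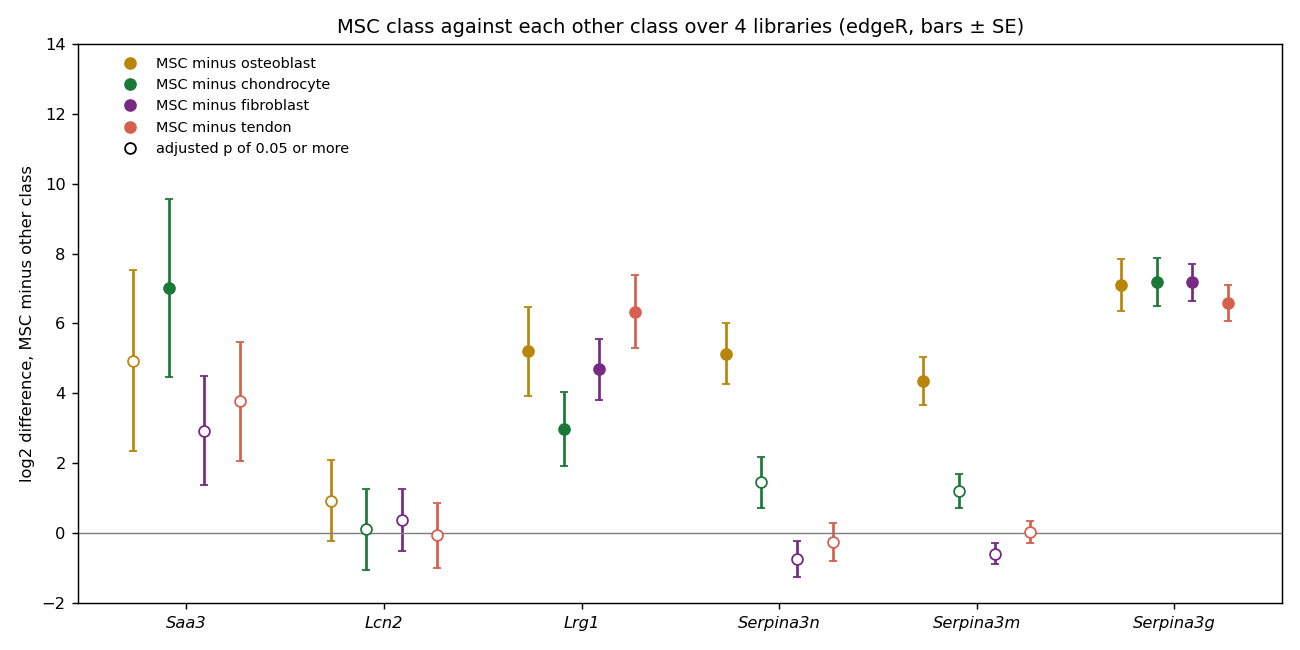
Fitted log2 difference of MSC cells minus each other class for the 6 genes, over 17 class sums of 4 libraries. Chondrocyte sums came from Abcg2-MDS/AML and Control only. Bars are ± 1 SE and filled points have an edgeR adjusted p under 0.05. Cells with granulocyte genes were kept, and such cells held most Lcn2 UMIs in MSC cells of WT_A1 and osteoblast cells of NHD13Tg. Serpina3g lies between 6.58 and 7.19 in all 4 comparisons, whereas Serpina3n and Serpina3m lie between -0.73 and 0.04 against fibroblast and tendon cells.

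Other genes of the response were counted from lists chosen with earlier results of these data known, over genes with at least 5 CPM in a library of the pair. Of 19 measured other acute-phase proteins, 3 were higher in NHD13Tg MSC cells and 0 lower, beside 1.45% and 3.42% of all such genes. They were Lbp, which carries endotoxin (907 CPM against 305 CPM in WT_A1), A2m, a protease trap (102 against 43.9 CPM), and Pf4, a platelet chemokine (13.8 against 4.21 CPM). The median log2 ratio of the list was 0.50 and that of all genes -0.07. The lists of upstream signals gave few calls. In NHD13Tg MSC cells 0 of 14 cytokines and their receptors, 0 of 21 NF-kB genes and 0 of 10 glucocorticoid targets passed in either direction, and of 16 STAT3 and C/EBP genes 0 were higher and 1 lower. Of the 5 measured genes of a protease list that was not limited to serine proteases, 2 were higher. Among them was the collagenase gene Mmp13 at 1674 CPM against 404 CPM in WT_A1, and inhibition of its product by these members was not tested. Of the other Serpina3 paralogues, Serpina3f stood at 60.7 CPM in NHD13Tg and 220 CPM in WT_A1, a ratio of 0.275. Of 11 measured receptors of acute-phase proteins 0 passed.

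In MSC cells of Abcg2-MDS/AML the lists split, beside 6.47% of all genes higher and 10.3% lower. Of 10 glucocorticoid targets 4 were higher and 0 lower: Tsc22d3, which encodes the leucine zipper protein GILZ (837 CPM against 178 CPM in Control), Fkbp5, a co-chaperone of the receptor (114 against 12.2 CPM), the transcription factor gene Zbtb16 (92.3 against 8.10 CPM), and Hsd11b1, which regenerates active glucocorticoid (63.6 against 22.0 CPM). Of 17 STAT3 and C/EBP genes 0 were higher and 7 lower, among them the feedback inhibitor Socs3 (836 against 2226 CPM) and Cebpb (945 against 2287 CPM). Of 22 NF-kB genes 4 were higher and 0 lower, among them Rela (83.3 against 35.9 CPM). Of 17 acute-phase proteins 3 were higher and 2 lower, with the metallothionein Mt1 at 10279 against 2522 CPM and complement C3 at 773 against 251 CPM. Il6ra, the interleukin-6 receptor, was among 1 higher and 3 lower of 15 cytokine genes, at 51.5 against 1.74 CPM. Among receptors 0 of 10 were higher and 2 lower, among paralogues 1 of 2 was higher, and among proteases 1 of 5 was higher and 2 lower.

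The same lists were counted in the other classes of that pair. Among glucocorticoid targets 8 of 10 were higher in fibroblast cells, 6 of 10 in tendon cells and 4 of 9 in chondrocyte cells, with 0 lower in each. Fkbp5 stood at 151 CPM in Abcg2-MDS/AML tendon cells against 16.7 CPM in Control and at 152 CPM in chondrocyte cells against 8.42 CPM. Among other acute-phase proteins 12 of 17 were higher and 2 lower in fibroblast cells, 10 of 17 and 2 in tendon cells, and 9 of 17 and 4 in chondrocyte cells. Complement C3 stood at 1920 CPM in fibroblast cells of Abcg2-MDS/AML against 251 CPM in Control, and the antitrypsin gene Serpina1a at 3402 CPM in chondrocyte cells against 1062 CPM. Beside these, 6.12% of all genes were higher and 13.9% lower in fibroblast cells, 7.73% and 11.5% in tendon cells, and 3.69% and 18.4% in chondrocyte cells. The cytokine list held 6 of 14 higher and 1 lower in fibroblast cells, 6 of 14 and 1 in tendon cells, and 1 of 11 and 0 in chondrocyte cells. In fibroblast cells Il6 stood at 220 CPM against 30.1 CPM in Control and the receptor gene Lifr at 177 CPM against 28.9 CPM. Of the NF-kB genes 5 of 21 were higher and 1 lower in fibroblast cells, 3 of 20 and 0 in tendon cells, and 1 of 19 and 0 in chondrocyte cells. Of the STAT3 and C/EBP genes 2 of 16 were higher and 1 lower in fibroblast cells, 0 of 15 and 1 in tendon cells, and 0 of 16 and 1 in chondrocyte cells. Receptors of acute-phase proteins gave 0 of 9 in fibroblast cells, 1 higher and 1 lower of 10 in tendon cells, and 0 higher and 5 lower of 8 in chondrocyte cells, among them the TGF-beta receptor gene Tgfbr2 at 43.1 CPM against 117 CPM in Control. The proteases gave 2 higher and 0 lower in each class, of 5, 4 and 4 measured. In fibroblast and tendon cells of NHD13Tg 0 of 10 glucocorticoid targets passed in either direction.

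Genes whose profile over the 17 class sums was most like the mean of the 6 members were sought among 7704 genes, as a description, since the sums share libraries and depth. Per1, a clock gene, came first (Pearson r = 0.91), followed by Smad4, Fam207a, Slc1a3, Klf13, Gpx3, Auh, Serpina3c, Zfp217 and Deptor, the last at r = 0.86. The members were not all alike in this. Serpina3n and Serpina3m had r = 0.92 with each other, whereas Serpina3g had r = 0.15 with each of them. Lcn2 was most like Zbtb16, Fkbp5 and Tsc22d3 (r between 0.84 and 0.86), Serpina3n like Gpx3, Mt2 and Mt1 (0.91 to 0.93), and Serpina3g like Pde2a, Notch3 and Serpina3f (all at r of 0.99).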

How the data were processed

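Stromal cells of 4 libraries were profiled by 3' single-cell RNA sequencing on the 10x Chromium. Cell Ranger 3.1.0 and Seurat 3.2.3 appear in the submitters' processing notes. The deposited matrices are raw UMI counts of all barcodes, without normalization, per the file headers. The genome build, the annotation and the treatment of reads shared by genes were not stated in the labels used. Cells and classes followed the thresholds given above. CPM, ratios with exact conditional binomial intervals, and shares were computed from summed counts in Python 3.11.15 with scipy 1.17.1. Against 0 UMIs, 3 counts over the summed class gave the bound. No doublet caller was run. The cells above the 99th percentile of UMIs, and cells of several classes, were left out as alternatives. Class sums were fitted with edgeR 4.0.16 (TMM, filterByExpr, robust fit, library as a block, Benjamini-Hochberg adjustment over all genes, threshold 0.05), with DESeq2 1.42.0 as an alternative. The size rule was run on simulated Poisson counts, which hold neither single cells with most UMIs of a gene nor differences between libraries. The fit was run on simulated negative binomial counts without a library effect. Neither run shows how the methods behave on sums like these. Depth was between 4186 and 5452 UMIs per cell at the median. In each list the 4 genes with the highest mean CPM of the class among those past the size rule could be named. The rule was written for MSC cells, and its use in other classes was added after the values had been seen. The members and lists were chosen with earlier results of these data known. No columns of samples outside the series were present.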

Additional observations from a re-analysis of the deposited data

Results flagged for a closer look

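Lrg1 in MSC cells stood apart because its 2 pairs moved in opposite ways. Its log2 ratio was higher in the NHD13 pair than in the Abcg2 pair by 3.67, with 308 CPM in NHD13Tg and 50.5 CPM in WT_A1, and 19.7 CPM in Abcg2-MDS/AML and 41.1 CPM in Control. This difference between the pairs was not tested, since each group has 1 library. The Abcg2-MDS/AML cells of the class also held less of its markers, 8765 CPM against 32217 CPM in Control, and the part of that in the ratio was not tested. The Lrg1 ratio of that pair rested on 13 and 71 UMIs. Its interval reached 1 without the cells that held granulocyte genes, at 0.550 (0.276 to 1.02). In chondrocyte, fibroblast and tendon cells of that pair Lrg1 was higher in the model.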

How the results depend on the processing

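Among member ratios past the size rule that could be recomputed, the direction held with 1 change of sign, that of Lcn2 in MSC cells of the Abcg2 pair. Its log2 ratio was -0.23 when the class thresholds were doubled. Settings that left at most 3 UMIs in both libraries gave no ratio and were not counted. Among these were Lcn2 in NHD13 osteoblast cells without granulocyte markers and Saa3 in NHD13 tendon cells of 1 class only. Sign changes of ratios not past the rule were not counted. Serpina3g in fibroblast cells of that pair, for example, stood at 1.10-fold, and at 0.951-fold without cells holding a granulocyte marker. Of all 515 recomputed ratios 60 more left their counting interval. Of the counts of members and background shares, 101 of 109 stayed within 1.5 times. In NHD13Tg osteoblast cells the count of 2 became 1 with free RNA subtracted, 1 with cells weighted equally, 1 without cells holding a granulocyte marker and 0 without the top cell of each member. The 1 without cells holding a granulocyte marker was Serpina3n (2.51-fold, 1.16 to 6.03), and neither Lcn2 nor Lrg1 passed there. In NHD13Tg fibroblast cells the count of 2 became 1 with cells of 1 class only, 1 without the deepest cells and 4 with a fold threshold of 1.5. In NHD13Tg tendon cells the count of 3 became 1 with cells of 1 class only. For these changes the cause was not tested. Subtracting free RNA could not be run in NHD13Tg MSC cells, because haemoglobin there, at 408 CPM, exceeded its 310 CPM in free RNA. In the class test the count of 5 members called higher lay between 2 and 5 with 1 library left out, and was 2 in the wild-type libraries alone, 4 without the low-count filter and 5 under DESeq2. The Lcn2 difference, not called in any setting, lay between -0.33 and 2.41 with 1 library left out. Thinning moved 57 of 102 shares of cells out of their interval. No paired analysis was possible because each group has 1 library.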
